A study of Mus musculus with 12 samples.

Results

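RNA for 10 integrin chains was measured in eosinophils of the mouse small intestine (SI), and its level was compared between the 3 subsets into which these cells were sorted. The 10 genes were taken by symbol from the normalized count table, which lists 36047 genes, and comprise 6 α chains (Itga4, Itgae, Itgal, Itgam, Itgax and Itgav) and 4 β chains (Itgb1, Itgb2, Itgb3 and Itgb7). The subsets were α4β7+, α4β7− CD22− and CD22+ cells (a4b7+, a4b7- CD22- and CD22+ in the labels), with 4 libraries each and 12 in all. Every library held RNA of cells pooled from a pair of wild type female C57BL/6J mice, obtained by sorting the proximal SI lamina propria for live CD45+ CD11b+ SiglecF+ MHCII− Ly6G− cells. The age of the mice is given only as a range for all experiments of the study, with mice matched for age, the mice were kept on standard chow without treatment, and no unsorted eosinophils or blood eosinophils were included. The question addressed by the subsets was how eosinophils change as they settle in the SI, with α4β7+ cells taken as the youngest and CD22+ cells as the oldest.

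Integrins are surface receptors made of 1 α chain and 1 β chain, which bind counter-receptors on other cells or proteins of the extracellular matrix and link them to the cytoskeleton. The α4β7 heterodimer binds the addressin MAdCAM-1 on gut vessels and serves entry of leukocytes into the gut, αEβ7 binds E-cadherin on epithelial cells, and α4β1 binds VCAM-1 and fibronectin. The β2 chain pairs with αL (LFA-1, a receptor for ICAMs), αM (Mac-1 or CD11b) and αX (CD11c), and αv pairs with β1, β3 and other β chains to bind proteins with an RGD motif. Because a chain reaches the surface only with a partner and RNA is not protein, the values below describe RNA of each chain and not the number of heterodimers on the cells.

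The summed normalized count of a library ranged from 14286474 to 16915755, and 19760 to 21960 genes were above 0. All 11 genes of an eosinophil marker list, Siglecf among them, had a mean above 10 normalized counts in each subset. Between CD22+ and α4β7+ cells 6 of the 11 were called lower by limma (fold change of at least 1.5, adjusted p no greater than 0.05) where 12% of all genes were called, and 10 estimates were below 0. Cd22, which encodes the other sorting marker, was at 1115 ± 175, 4462 ± 934 and 13330 ± 1590 normalized counts (SD, n = 4) in α4β7+, α4β7− CD22− and CD22+ cells. Genes of other cell types were detected in every library. By library, 9 B or plasma cell markers summed to between 11637 and 36939 normalized counts and 11 epithelial markers to between 1850.6 and 8208. By limma none of the 20 was called in any comparison, with 0 at an unadjusted p under 0.05. Of the 11 epithelial estimates, 11 were below 0 in α4β7− CD22− and 10 in CD22+ compared with α4β7+ cells (median log2 fold change −0.46 and −0.53). The part of epithelial RNA in the values of the chains was not tested. Values for T cells and macrophages stand beside the chains concerned. In such bulk samples, fewer cells with a transcript and less of it per cell cannot be told apart.

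**Figure D1:**
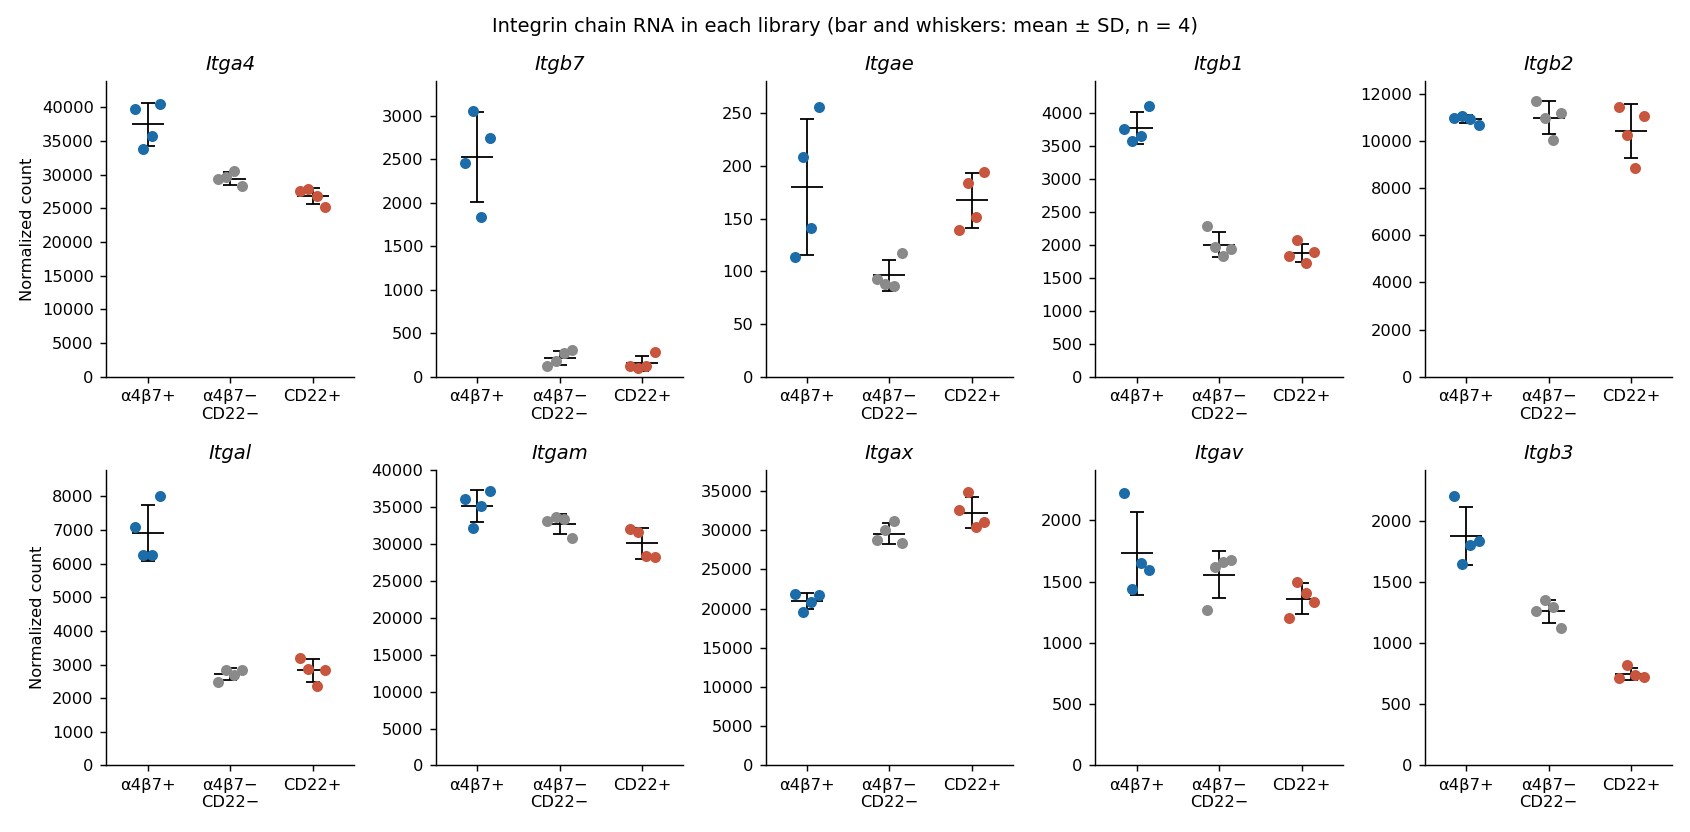
Normalized count (vertical axis, linear, from 0, with its own scale in each panel) of the 10 integrin chains in each of the 12 libraries, as points, with the mean and SD of the 4 libraries of a subset. Itgb7 lay at or above 1838 in α4β7+ libraries and at or below 304 in all others, whereas the 3 subsets overlapped for Itgb2.

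Of the 10 chains, 4 were lower in α4β7− CD22− than in α4β7+ eosinophils (Itgb7, Itgae, Itgb1 and Itgal) and none was higher, where a call required a fold change of 1.5 or more in either direction with an adjusted p no greater than 0.05. Among all 15249 genes tested, 8.05% were called in this comparison, 4.35% lower and 3.7% higher. In CD22+ compared with α4β7+ eosinophils, 5 chains were called, with Itgb7, Itgb1, Itgal and Itgb3 lower and Itgax higher, against 12% of all genes tested, 6.39% lower and 5.6% higher. Between CD22+ and α4β7− CD22− cells 1 chain was called, Itgb3, which was lower in CD22+ cells, where 0.603% of all genes were called, 0.393% lower and 0.21% higher. The median log2 fold change of the 10 chains was −0.46, −0.40 and −0.11 in these comparisons, beside medians of 0.003, 0.014 and −0.001 over all genes tested. Without Itga4 and Itgb7, which encode the sorting marker, 3, 4 and 1 of the other 8 chains were called, and the medians were −0.36, −0.28 and −0.09. Scaling by the library total raised the share of higher genes among all calls from 45.9%, 46.7% and 34.8% to 61.9%, 68.7% and 47.6%. The first 2 comparisons share the α4β7+ libraries, and the 3 chains called lower in both (Itgb7, Itgb1 and Itgal) were therefore measured against the same 4 values. All differences are from limma on log2(normalized count + 1), with p adjusted over all genes tested.

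**Figure D2:**
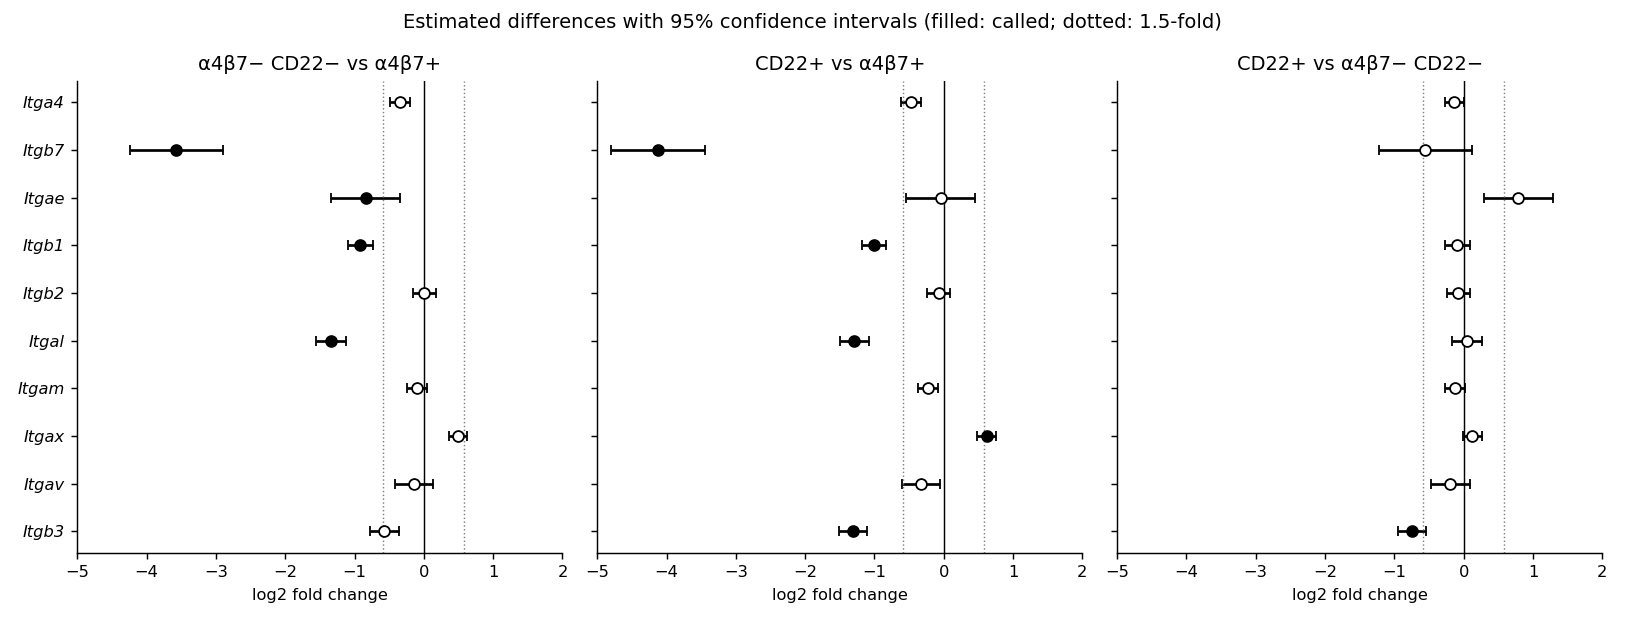
Estimated log2 fold change (horizontal axis) of each integrin chain in the 3 comparisons, with 95% confidence intervals, where a filled point is a call and dotted lines mark a 1.5-fold change. The intervals of Itgb7, Itgb1 and Itgal lie left of 0 in both comparisons with α4β7+ cells, and that of Itgb3 lies left of 0 in all 3 panels.

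Itgb7, the β chain of the sorted α4β7 antigen and also the partner of αE, had the largest difference of the 10 chains. Its normalized count was 2459, 3058, 1838 and 2748 in the α4β7+ libraries, 126, 182, 269 and 304 in the α4β7− CD22− libraries, and 122, 98.7, 118 and 285 in the CD22+ libraries. The lowest α4β7+ library was thus far above the highest library of either other subset, while α4β7− CD22− and CD22+ libraries overlapped. The mean fell from 2526 ± 520 (SD, n = 4) to 220 ± 81 and 156 ± 86.5, which was 8.7% and 6.2% of the α4β7+ mean. The log2 fold change was −3.57 (SE 0.32, adjusted p = 2.75e-06) and −4.12 (SE 0.32, adjusted p = 2.54e-07). Since cells were sorted on the protein of this gene, these values check the sort and are not an independent finding. CD22+ cells were not shown to differ from α4β7− CD22− cells, with a log2 fold change of −0.55 and a 95% interval from −1.23 to 0.12.

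Itga4, the α chain of the same antigen, kept a high level in all 3 subsets. Libraries of α4β7+ cells had normalized counts of 39798, 33852, 35755 and 40472, against 29352, 29589, 30500 and 28292 in α4β7− CD22− libraries, and 27556, 27890, 26805 and 25253 in CD22+ libraries. No library of a subset reached the values of the next, yet the distances were small beside those of Itgb7. The α4β7− CD22− mean was 78.6% and the CD22+ mean 71.7% of the α4β7+ mean. The differences of −0.35 (adjusted p = 0.00261) and −0.48 on the log2 scale (adjusted p = 0.000102) passed the adjusted p and missed the 1.5-fold threshold, although under quantile normalization the latter was −0.17 (adjusted p = 0.102). That between CD22+ and α4β7− CD22− cells was −0.13 (adjusted p = 0.571). In RNA, the α4β7+ subset thus differed from the others far more in the β chain of the sorting marker than in its α chain. Along 18.5% of its longest transcript Itga4 matches 27 other genes at an identity of at least 90%, mostly the overlapping Cerkl on the opposite strand, which had 137 to 147 normalized counts by subset, so a small part of the Itga4 count is uncertain.

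Itgae, the αE chain, which leukocytes within the epithelium such as intraepithelial lymphocytes carry, had the lowest level per kb of the 10 chains in each subset. It was measured at 114, 208, 141 and 256 normalized counts in α4β7+ libraries, 92.8, 87.9, 86.3 and 117 in α4β7− CD22− libraries, and 139, 184, 152 and 195 in CD22+ libraries. The α4β7− CD22− libraries were below all CD22+ libraries, and overlapped the α4β7+ libraries, of which replicate 1 lay below the highest of them. The call in α4β7− CD22− cells rested on a log2 fold change of −0.84 (SE 0.23, adjusted p = 0.0248). It was lost without α4β7+ replicate 2 (−0.74, adjusted p = 0.0731) or replicate 4 (−0.64, adjusted p = 0.0766), and without α4β7− CD22− replicate 1 (−0.82, adjusted p = 0.0544), replicate 2 (−0.80, adjusted p = 0.0632) or replicate 3 (−0.79, adjusted p = 0.0637). CD22+ cells differed from α4β7− CD22− cells by 0.79 (adjusted p = 0.163) and from α4β7+ cells by −0.05 (95% interval −0.54 to 0.45). The lowest mean of Itgae was thus in the α4β7− CD22− subset, at 96.1 ± 14.5 beside 180 ± 64.5 and 167 ± 26.2 (SD, n = 4) in α4β7+ and CD22+ cells. Haspin lies on the opposite strand within Itgae and had 79.6, 138 and 142 normalized counts in the 3 subsets. The longest Itgae transcript shares no sequence with other genes at an identity of at least 90% over at least 100 bases.

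T cell genes followed the order of Itgae in part. The summed normalized count of the 13 genes of a list of 16 that had values, all above 10 on average in every subset and none at 0 throughout, was 1666, 3312, 1869 and 2321 in α4β7+ libraries, 924, 1240, 1162 and 1478 in α4β7− CD22− libraries, and 1447, 1410, 1710 and 2184 in CD22+ libraries. Of these 13 genes 7 (53.8%) were called lower in α4β7− CD22− than in α4β7+ cells, where 8.05% of all genes were called and 4.35% called lower, with a median log2 fold change of −1.09. In CD22+ compared with α4β7+ cells 1 (7.7%) was called lower, against 12% and 6.39% of all genes. There 10 of the 13 estimates were below 0, with a median of −0.51, while Itgae differed by −0.05. Between CD22+ and α4β7− CD22− cells none of the 13 was called by limma, 3 had an unadjusted p under 0.05, and 12 of the 13 estimates were above 0. Cd8a, the α chain of the CD8 co-receptor, which was picked after its values were seen, had 164 ± 68.8, 81.4 ± 4.76 and 170 ± 27.2 normalized counts (SD, n = 4), lowest in the α4β7− CD22− subset like Itgae. Not every gene of the list had this order. Cd3d was at 337, 361 and 365, the 1 gene with an estimate above 0 in α4β7− CD22− compared with α4β7+ cells. Cd4 was at 184, 122 and 123, the 1 gene with an estimate below 0 between CD22+ and α4β7− CD22− cells. Itgb7 went with the T cell sum in part, since replicate 4 had the highest Itgb7 and the highest T cell sum of both the α4β7− CD22− and the CD22+ libraries. Of 11 genes of mast cells, which can carry αE, 9 were too low to be tested and Cpa3 averaged 1.30 or less, while Hdc had 823, 780 and 972 and Kit had 82.4, 120 and 134 normalized counts in the 3 subsets and neither was called. The part of T cell or mast cell RNA in the Itgae and Itgb7 values was not tested.

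**Figure D3:**
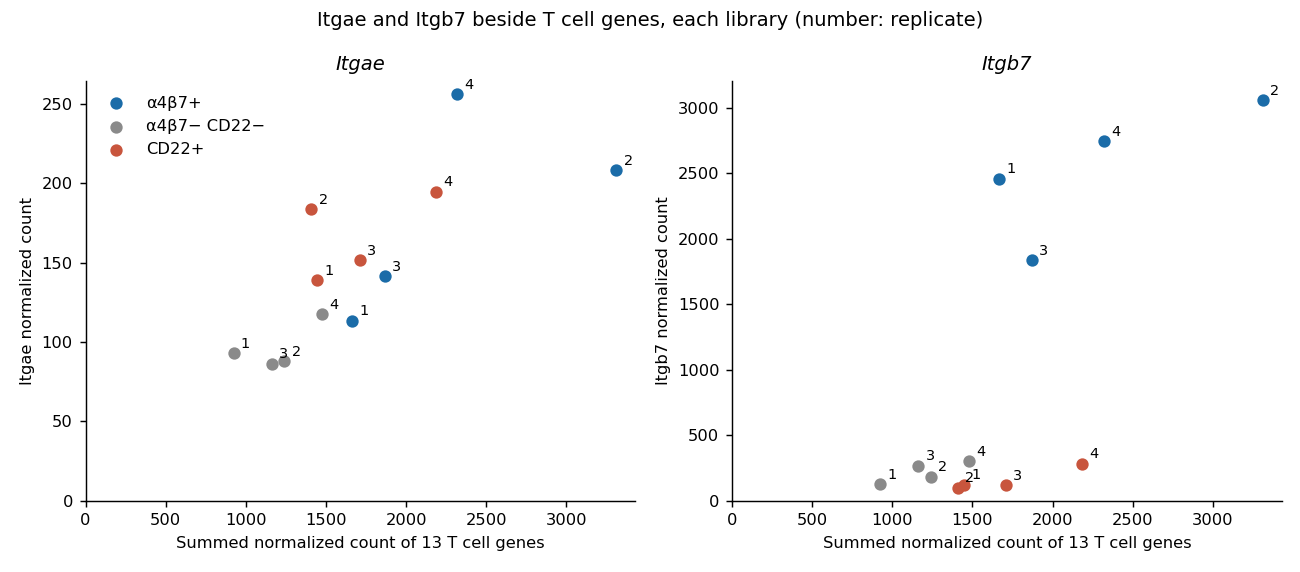
Normalized count of Itgae (left) and Itgb7 (right) on the vertical axis beside the summed normalized count of 13 T cell genes on the horizontal axis, where each point is 1 library and its number the replicate. The 4 α4β7− CD22− libraries have T cell sums of 924 to 1478 and Itgae at 117 or below, while Itgb7 separates the α4β7+ libraries at any T cell sum.

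Itgb1, the β chain shared by α4 and αv and by most collagen and laminin receptors, fell to about the same level in both other subsets. Normalized counts were 3760, 3581, 3658 and 4118 in α4β7+ libraries, 2285, 1972, 1828 and 1943 in α4β7− CD22− libraries, and 1831, 2071, 1732 and 1888 in CD22+ libraries. All α4β7+ libraries were above all others, and the other subsets overlapped. The means were 3779 ± 238, 2007 ± 196 and 1880 ± 142 (SD, n = 4). The log2 fold change from α4β7+ was −0.92 in α4β7− CD22− cells (SE 0.08, adjusted p = 3.56e-06) and −1.01 in CD22+ cells (SE 0.08, adjusted p = 5.98e-07). The 95% interval of the difference between the last 2 subsets ran from −0.27 to 0.09.

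Among the β2 integrins, the shared β chain and the 3 α chains took different courses. Itgb2 itself showed no call, with 10920 ± 165, 10980 ± 700 and 10420 ± 1140 normalized counts (SD, n = 4) in α4β7+, α4β7− CD22− and CD22+ cells. The 95% interval of its log2 fold change was −0.16 to 0.17 in α4β7− CD22− and −0.24 to 0.09 in CD22+ cells compared with α4β7+ cells, and the sign of the estimate depended on single libraries in both comparisons and on the scaling in the latter. Of its α partners in CD22+ compared with α4β7+ cells, Itgal was called lower, Itgax was called higher and Itgam was not called. Itgb2 shares 7.7% of its longest transcript with Gm14699, so that part of its count is uncertain.

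Itgal, which encodes the αL chain of LFA-1, had the largest fold change after Itgb7 in α4β7− CD22− cells. Its normalized count was 7099, 6271, 6254 and 8012 in α4β7+ libraries, 2473, 2836, 2701 and 2846 in α4β7− CD22− libraries, and 3195, 2879, 2376 and 2841 in CD22+ libraries. The α4β7+ libraries stood clear of the other 8, which overlapped. The means of 2714 ± 174 and 2823 ± 337 (SD, n = 4) were 39.3% and 40.9% of the α4β7+ mean of 6909 ± 835. The log2 fold change was −1.34 (SE 0.10, adjusted p = 6.15e-07) and −1.29 (SE 0.10, adjusted p = 2.71e-07). CD22+ cells differed from α4β7− CD22− cells by 0.05, with a 95% interval from −0.16 to 0.26. T cells also express Itgal, and the T cell sum was lowest in α4β7− CD22− cells whereas Itgal was at like levels in both other subsets. The part of T cell RNA in the Itgal values was not tested.

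Itgax, which encodes αX (CD11c), was the only chain called higher. Its normalized count was 21840, 19578, 20788 and 21677 in α4β7+ libraries, 28681, 29978, 31206 and 28348 in α4β7− CD22− libraries, and 32617, 34804, 30461 and 31037 in CD22+ libraries. Every library of the latter subsets was above every α4β7+ library, and the 2 subsets overlapped each other. The mean rose from 20970 ± 1040 to 32230 ± 1940 (SD, n = 4) in CD22+ cells, by 0.62 on the log2 scale (SE 0.06, adjusted p = 4.42e-06). That call lay close to the fold threshold and was lost without CD22+ replicate 2 (0.58), while quantile normalization gave 0.94. In α4β7− CD22− cells the log2 fold change was 0.50 (adjusted p = 8.23e-05), under the fold threshold. Under total scaling (0.59) and quantile normalization (0.63) it passed.

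Itgam, which encodes αM (CD11b), on which all 3 subsets were gated, ranged from 32112 to 37240 in α4β7+, from 30750 to 33673 in α4β7− CD22− and from 28238 to 32058 normalized counts in CD22+ libraries. Its log2 fold change was −0.10 (adjusted p = 0.371) in α4β7− CD22− cells and −0.23 (adjusted p = 0.0265) in CD22+ cells compared with α4β7+ cells, below the fold threshold, and under quantile normalization the latter estimate was 0.06. Its adjusted p was above 0.05 in 10 of 23 alternatives. Itgam shares 73.8% of its longest transcript with Gm49368, an annotated gene on the same strand, which had 350, 267 and 256 normalized counts in the 3 subsets, so reads of both genes may have been divided between them. None of 16 macrophage and dendritic cell genes was called by limma in the 3 comparisons, and 0, 0 and 1 of them had an unadjusted p under 0.05. Their summed count was 4129 to 6779 in α4β7+, 4273 to 7904 in α4β7− CD22− and 4050 to 10783 in CD22+ libraries, with the highest value in CD22+ replicate 4. The neutrophil genes S100a8 and Ly6g were at 2.93 or below on average in each subset, and of the 7 genes of that list that were tested, 4 were called lower and 2 higher in CD22+ than in α4β7+ cells (85.7% called, against 12% of all genes). Mmp9 and Retnlg went from 20010 and 18830 to 9947 and 3053, whereas Ngp and Csf3r went from 31.6 and 414 to 143 and 1076. The part of RNA of these cell types in the Itgax, Itgam and Itgb2 values was not tested.

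Itgb3, the β chain that pairs with αv and with the platelet chain αIIb, was the only chain called between CD22+ and α4β7− CD22− cells. Its normalized count was 2204, 1644, 1804 and 1837 in α4β7+ libraries, 1260, 1350, 1298 and 1126 in α4β7− CD22− libraries, and 714, 823, 739 and 726 in CD22+ libraries. No libraries overlapped between any pair of subsets. The means of 1872 ± 236, 1259 ± 95.6 and 750 ± 49.5 (SD, n = 4) gave a log2 fold change of −0.57 in α4β7− CD22− cells (SE 0.10, adjusted p = 0.000939), just under the fold threshold. From there CD22+ cells differed by −0.74 (SE 0.10, adjusted p = 0.00119), and from α4β7+ cells by −1.31 (SE 0.10, adjusted p = 1.6e-07). Without α4β7+ replicate 2 (−0.63) or α4β7− CD22− replicate 2 (−0.60) the α4β7− CD22− difference passed the fold threshold too. Itga2b, the αIIb chain, had 531 ± 80.8, 677 ± 192 and 593 ± 51.2 normalized counts and was not called. The summed count of 8 platelet genes, Itga2b among them and the largest part, was 637 to 825, 690 to 1093 and 653 to 751. Ppbp was the 1 gene of the 4 tested that was called lower in CD22+ than in α4β7+ cells (log2 fold change −0.84). The part of platelet RNA in the Itgb3 values was not tested.

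Itgav, the α partner of β3, was not called. It ranged from 1444 to 2226 normalized counts in α4β7+, from 1271 to 1675 in α4β7− CD22− and from 1200 to 1500 in CD22+ libraries, so all 3 subsets overlapped. The log2 fold change in CD22+ compared with α4β7+ cells was −0.33 (adjusted p = 0.0857, 95% interval −0.61 to −0.06).

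Libraries of the compared subsets did not overlap for 6, 7 and 3 of the 10 chains in the 3 comparisons, taken in the order above, while 18.8%, 22.9% and 6.37% of all genes tested had no overlap. Without Itga4 and Itgb7 these were 4, 5 and 2 of the other 8 chains. The 3 of the last comparison were Itga4, Itgae and Itgb3, of which Itgae was higher in CD22+ cells. At the adjusted p alone 7, 7 and 1 chains passed, against 14.9%, 21.1% and 1.08% of all genes.

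Levels of different chains were compared only after division by the length of the longest protein-coding transcript. In normalized counts per kb, α4β7+ cells had the order Itgam (7506), Itgax (5183), Itga4 (3836), Itgb2 (3676), Itgal (1323), Itgb1 (991), Itgb7 (941), Itgb3 (324), Itgav (245) and Itgae (46.7). Itga4 and Itgb2, Itgb1 and Itgb7, and Itgb3 and Itgav were neighbours whose libraries overlapped. In CD22+ cells the order per kb was Itgax (7966), Itgam (6422), Itgb2 (3508), Itga4 (2752), Itgal (540), Itgb1 (492.9), Itgav (193), Itgb3 (130), Itgb7 (58.1) and Itgae (43.5), with overlap between Itgal and Itgb1 and between Itgb7 and Itgae. The α4β7− CD22− cells had Itgax (7304) and Itgam (6992) overlapping at the top and Itgb7 (82.2) and Itgae (25.0) apart at the bottom. Thus Itgax stood below Itgam in α4β7+ and above it in CD22+ cells. This order depended on the length used. The median length of the protein-coding transcripts put Itgb2 first in α4β7+ and in CD22+ cells, gave overlap between Itgam and Itgax in α4β7+ cells, and put Itgb7 (5867) above Itgb1 (1670) there without overlap.

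**Figure D4:**
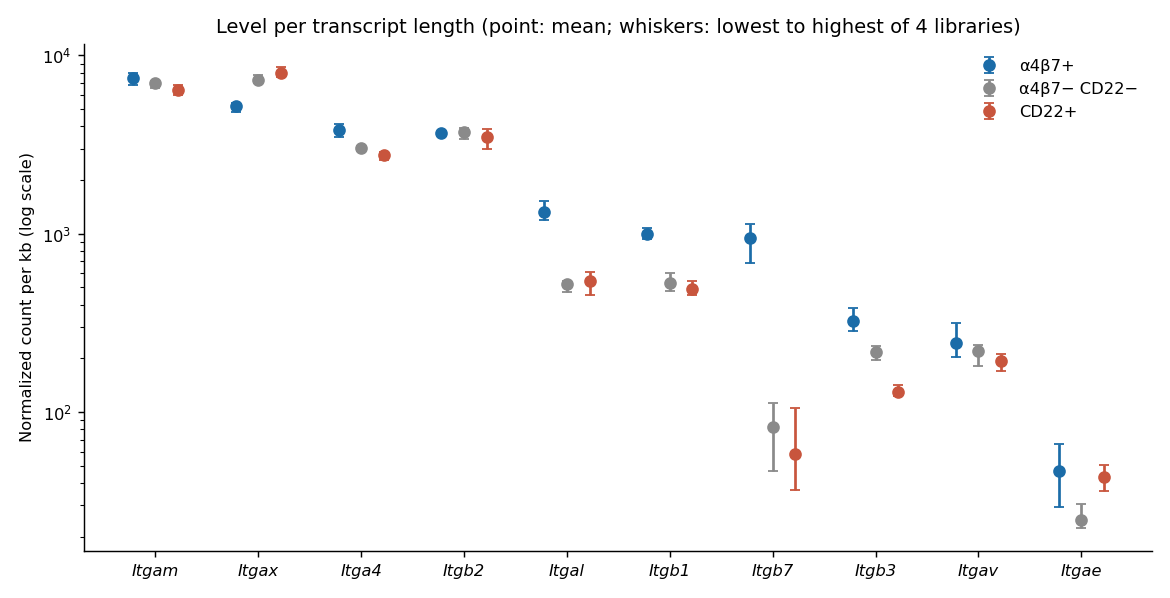
Normalized count per kb of the longest protein-coding transcript (vertical axis, log scale) for the 10 integrin chains, as the mean of 4 libraries with whiskers from the lowest to the highest. Levels span from 25.0 for Itgae in α4β7− CD22− cells to 7966 for Itgax in CD22+ cells.

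The ratio of an α chain to a β chain within a library does not depend on a scaling factor shared by all genes of that library, and was compared for 8 pairs known to form heterodimers. Whether the deposited values were also divided by factors that differ between genes, on which such a ratio would depend, is not given in the sources used here. Libraries of the 2 subsets compared did not overlap for 5 of the 8 pairs in α4β7− CD22− and for 7 in CD22+ compared with α4β7+ cells, and for 1 pair between CD22+ and α4β7− CD22− cells. Of these pairs 3 hold a chain of the sorted antigen, and without them 2, 4 and 1 of the other 5 had no overlap. The share over other gene pairs was not computed. With 4 libraries against 4, the smallest p of the exact two-sided permutation test was 0.0286, and after adjustment over the 24 tests none passed 0.05, the smallest adjusted p being 0.0527.

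Per kb, α4 RNA was 4.13 times β7 RNA in α4β7+ cells, 38.6 times in α4β7− CD22− cells and 51.6 times in CD22+ cells. With the median length of the protein-coding transcripts instead, these ratios were 0.663, 6.2 and 8.29, and Itgb7 (5867 per kb) exceeded Itga4 (3836) in α4β7+ cells. Whether the ratio of α4β7+ cells was above or below 1 thus depended on the length used, while the change between subsets did not. The same held for 5 of the 8 pairs in at least 1 subset, of which the other 4 are given below with both lengths. For the longest transcripts, which all ratios use where not stated otherwise, the log2 ratio was 2.15, 1.60, 2.42 and 2.02 in the α4β7+ libraries, and between 4.602 and 6.264 in the other 8. The α4 to β1 ratio was 3.87 in α4β7+ cells, and 5.74 and 5.59 in the other subsets (2.29, 3.41 and 3.31 with the median length). The αE to β7 ratio went from 0.048 to 0.32 and 0.81 (0.0078, 0.052 and 0.13 with the median length). Since cells were sorted on the protein of Itgb7, the changes of both β7 ratios largely restate the sort and are not independent findings. Itgae itself differed from α4β7+ cells by −0.84 and −0.05 on the log2 scale, and Itgb7 by −3.57 and −4.12.

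Within the β2 family, the αL to β2 ratio fell from 0.36 to 0.14 in α4β7− CD22− and 0.15 in CD22+ cells (0.0875, 0.0344 and 0.0376 with the median length). The log2 difference was −1.35 and −1.22 (exact permutation p = 0.0286 each, no overlap). The αX to β2 ratio went the opposite way, from 1.41 to 1.98 and 2.28 (0.46, 0.645 and 0.743 with the median length), a log2 difference of 0.49 and 0.69 (exact permutation p = 0.0286 each, no overlap). The αM to β2 ratio was 2.04, 1.89 and 1.84, or 0.485, 0.45 and 0.437 with the median length, with overlap in every comparison (exact permutation p of 0.257, 0.143 and 0.657). The αv to β3 ratio was the 1 pair without overlap between CD22+ and α4β7− CD22− cells, at 0.75, 1.01 and 1.48 over the 3 subsets, with a log2 difference of 0.55 in that comparison (exact permutation p = 0.0286). With the median length it was 7.71, 10.4 and 15.2, so that αv exceeded β3 in each subset. With libraries of the same number taken as pairs, a test added after seeing the data, it was higher in CD22+ cells in 4 of 4 pairs (exact sign-flip p = 0.125, two-sided and the smallest that 4 pairs allow). On leaving out 1 library 1 to 3 pairs had no overlap there, 3 without α4β7− CD22− replicate 1 and 2 without its replicate 3 or without CD22+ replicate 4. Relative to β1, αv RNA was 0.245, 0.418 and 0.391, and with the median length 1.49, 2.54 and 2.38.

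**Figure D5:**
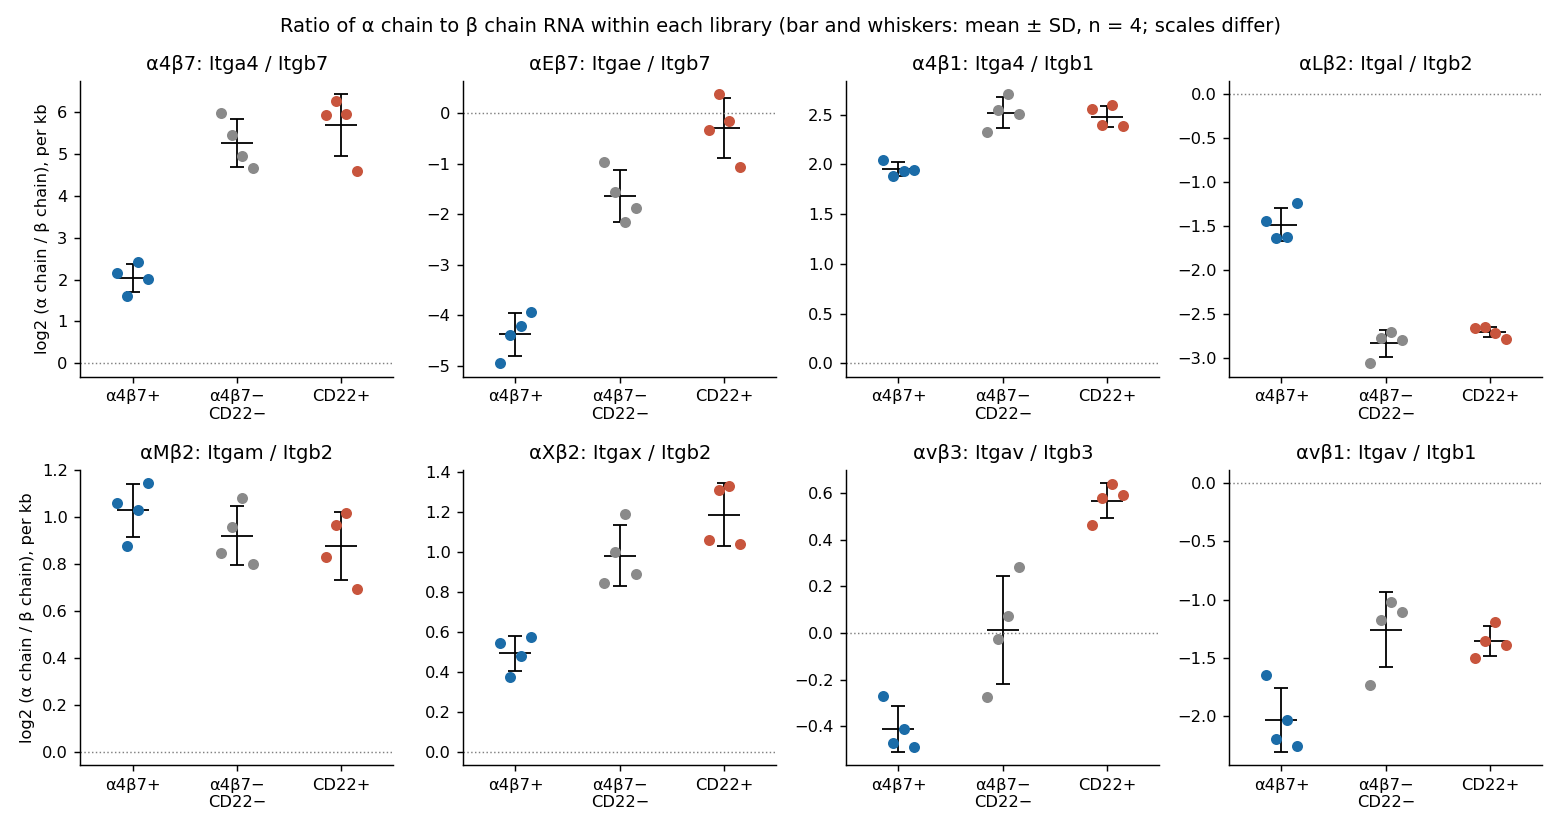
The log2 ratio of α chain to β chain RNA per kb (vertical axis, scales differ between panels) in each library, with the mean and SD of the 4 libraries of a subset, for 8 heterodimers. The αL to β2 and αX to β2 ratios of the α4β7+ libraries lie apart from the other 8 in opposite directions, and the αv to β3 ratio is highest in the 4 CD22+ libraries.

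On the genome (GRCm38) the genes of the 3 α partners of β2 lie on chromosome 7 on the plus strand, with Itgal at chr7:127296260-127335138, Itgam at chr7:128062640-128118491 and Itgax at chr7:128129547-128150657. The end of Itgam is 11.1 kb from the start of Itgax, and the end of Itgal is 727.5 kb from the start of Itgam. Itgb2 is at chr10:77530252-77565708, Itgb7 at chr15:102215995-102231944 on the minus strand, and Itgb1 at chr8:128685654-128733200. Itga4 and Itgav are both on chromosome 2, and Itgae and Itgb3 on chromosome 11. The number of exons in the longest transcript was 15 or 16 in the β chains and 28 to 31 in the α chains.

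RefSeq promoters (GRCm38.p6) were found for 6 of the 10 chains, and the 250 bases before the start are shown for the 3 of these that were called and for Itgam, the neighbour of Itgax. Capitals mark matches on either strand to 6 motifs that were searched. RUNX was spelled TGTGGT for this search, and the letters of the SMAD motif were CAGACA. For PU.1, a factor of myeloid cells, GAGGAA was taken, whereas GATA factors were searched as AGATAA. The AP-1 motif was TGACTCA, and AGGTCA stood for the half-site of retinoic acid receptors. No match overlapped another in these windows. They are read 5′ to 3′ on the strand of the gene, for Itgb7 at chr15:102231936-102232185, Itgb1 at chr8:128685404-128685653, Itgam at chr7:128062390-128062639 and Itgax at chr7:128129300-128129549.
Itgb7: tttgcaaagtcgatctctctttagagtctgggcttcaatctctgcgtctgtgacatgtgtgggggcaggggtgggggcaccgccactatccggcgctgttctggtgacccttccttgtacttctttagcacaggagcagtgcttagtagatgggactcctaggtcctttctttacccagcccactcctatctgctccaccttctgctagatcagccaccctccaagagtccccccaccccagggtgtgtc
Itgb1: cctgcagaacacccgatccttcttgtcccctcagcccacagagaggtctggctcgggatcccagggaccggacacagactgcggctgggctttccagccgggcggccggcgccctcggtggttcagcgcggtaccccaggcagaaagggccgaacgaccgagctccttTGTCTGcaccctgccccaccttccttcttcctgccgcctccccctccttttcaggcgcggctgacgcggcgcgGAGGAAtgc
Itgam: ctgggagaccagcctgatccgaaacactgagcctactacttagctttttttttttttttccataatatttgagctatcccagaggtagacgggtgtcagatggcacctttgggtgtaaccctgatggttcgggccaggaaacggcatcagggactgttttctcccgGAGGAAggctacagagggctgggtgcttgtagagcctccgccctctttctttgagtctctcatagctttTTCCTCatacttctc
Itgax: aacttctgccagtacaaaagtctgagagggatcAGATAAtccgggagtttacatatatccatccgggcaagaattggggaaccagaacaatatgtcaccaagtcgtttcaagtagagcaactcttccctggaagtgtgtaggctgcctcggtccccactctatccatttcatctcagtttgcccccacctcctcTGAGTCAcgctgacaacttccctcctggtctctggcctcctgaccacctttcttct
The Itgb7 window held none of the 6 motifs. The Itgb1 window held the SMAD letters in reverse orientation 82 bases before the start and the PU.1 letters 9 bases before it. The Itgam window held the PU.1 letters 2 times, 84 and 15 bases before the start, and that of Itgax held the GATA letters at 217 and the AP-1 letters at 56 bases. The same letters were present in 17.1% (SMAD), 23.3% (PU.1), 10% (GATA) and 4.5% (AP-1) of 32851 promoters of that length, and RUNX and the half-site letters, in none of the 4 windows shown, in 14.0% each. These matches describe the sequence only.

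Of the other integrin chains, 15 of 17 were high enough to be tested. In α4β7− CD22− and CD22+ compared with α4β7+ cells 6.7% and 13.3% of them were called, near the 8.05% and 12% of all genes. Itga2, a collagen receptor chain, was lower in α4β7− CD22− than in α4β7+ cells, with 184 ± 66 against 356 ± 134 normalized counts (SD, n = 4, log2 fold change −0.94, adjusted p = 0.0227). In CD22+ compared with α4β7+ cells, Itgb2l, a β2-like chain, was lower, with 429 ± 17.9 against 894 ± 212 (−1.03, adjusted p = 0.000264), and Itgad, the αD chain of the β2 family, was higher, with 208 ± 25.3 against 118 ± 26.8 (0.82, adjusted p = 0.00944). None of the 15 was called between CD22+ and α4β7− CD22− cells by limma, and 3 had an unadjusted p under 0.05 there. The median log2 fold change of the 15 was −0.16, −0.26 and −0.18 in the 3 comparisons. Itgb8, which pairs with αv, and Itga11 were below the filter.

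Of 29 adaptors that bind integrin tails or switch integrins between their inactive and active forms, 2 fell and 1 rose in α4β7− CD22−, and 3 fell and 1 rose in CD22+ compared with α4β7+ cells, with median log2 fold changes of −0.17 and −0.20. The shares called, 10.3% and 13.8%, were near those of all genes. Flna, filamin A, which binds β tails, went from 6008 ± 333 to 3239 ± 131 and 2517 ± 190 normalized counts (SD, n = 4) and was called in both. Fermt3, the kindlin of blood cells that activates β1, β2 and β3 integrins, went from 3230 ± 309 to 2198 ± 82.1 and 1777 ± 187 and was called in CD22+ cells (−0.86, adjusted p = 5.73e-06), as was Rap1gap2, an inhibitor of Rap1 (−0.71, adjusted p = 8.95e-05). Dok1, a β tail binding docking protein, rose from 353 ± 50.9 to 626 ± 78 and 762 ± 83.7. Skap1, an adaptor best known from T cells, was lower in α4β7− CD22− cells (−1.30, adjusted p = 0.0142), and its order over the subsets (73.4, 29.1 and 60.7) was like that of the T cell sum.

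Of 40 genes of adhesion signalling, 2 fell and 1 rose in α4β7− CD22−, and 5 fell and 1 rose in CD22+ compared with α4β7+ cells, or 7.5% and 15% of them against 8.05% and 12% of all genes. Lpxn, a paxillin family member, fell from 187 ± 20 to 73.8 ± 5.37 and 54.1 ± 8.26 normalized counts (SD, n = 4), and Vav3, of the Vav family of signalling proteins, from 1055 ± 140 to 607 ± 128 and 549 ± 80.8. Its paralog Vav2 rose from 1033 ± 145 to 2602 ± 129 and 2915 ± 289 normalized counts (SD, n = 4), by 1.342 and 1.502. The focal adhesion genes Vcl (−0.95) and Zyx (−0.77) were called lower in CD22+ cells. The median log2 fold change of the 40 was −0.15 and −0.09 in these comparisons. None of the 29 adaptors and 40 signalling genes was called between CD22+ and α4β7− CD22− cells by limma, where 6 and 11 of them had an unadjusted p under 0.05.

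Among 15 surface partners of integrins, Cd37, a tetraspanin, fell in each comparison, from 2784 ± 153 to 1405 ± 160 and 779 ± 79 normalized counts (SD, n = 4). Cd9, another tetraspanin, was called lower in CD22+ cells (−0.62 from α4β7+ cells), and Plaur, the urokinase receptor, rose from 6056 ± 671 to 11880 ± 1790 and 10850 ± 1860. Of the 15, 13.3% and 20.0% were called in the comparisons with α4β7+ cells, against 8.05% and 12% of all genes, and the median log2 fold change was −0.07 and −0.15. Of 17 integrin ligands tested, with medians of −0.39 and −0.05, 4 were called lower in both subsets than in α4β7+ cells, namely Thbs1, Lgals3, Icam1 and Icam2. With 1 called higher in CD22+ cells, 23.5% and 29.4% of the ligands were called, where 8.05% and 12% of all genes were. Icam1, a ligand of LFA-1 and Mac-1, went from 4633 ± 320 to 2959 ± 206 and 2504 ± 162, and Icam2, another LFA-1 ligand, from 212 ± 49.1 to 98.8 ± 23.6 and 96.2 ± 14.2. The LFA-1 chain Itgal and the LFA-1 ligands Icam1 and Icam2 were thus all called lower in both subsets, whereas F11r, also a ligand of LFA-1, was called higher in CD22+ cells (1.11). Thbs1 and Lgals3 were called lower again in CD22+ compared with α4β7− CD22− cells (−0.82 and −0.88). In that comparison 6.7% of the partners and 11.8% of the ligands were called, against 0.603% of all genes.

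The genes with patterns most like those of the 6 chains called in at least 1 comparison were found by Pearson correlation of log2(normalized count + 1) over the 12 libraries, which hold 3 subsets, so that any gene split by subset correlates. For Itgb7 they were Hpn (r = 0.98), Krt80 (0.98) and Slc8a1 (0.97), and for Itgb1 they were Pi16 (0.99), Sod2 (0.99) and Myc (0.99). Itgal was most like Tgfbi (0.99), Spn (0.98) and Csgalnact2 (0.98), and Itgb3 was most like Suox, Rgs18 and Ccl6 (0.98 each). The closest to Itgax were Jak2, Atp8a1 and Zmiz1 (0.98 or more each). Itgae correlated best with another integrin, Itga1 (0.93), the α1 collagen receptor chain, which had 132 ± 55.6, 81.2 ± 18.2 and 137 ± 25.8 normalized counts (SD, n = 4) in the 3 subsets and was not called.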

How the data were processed

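RNA of sorted SI eosinophils was sequenced in 12 libraries, 4 for each of the α4β7+, α4β7− CD22− and CD22+ subsets. Per the labels, libraries were made with a stranded total RNA kit, and the submitters' processing notes name Trimmomatic 0.39, Kallisto 0.46.1 and DESeq2 1.38.2 with GRCm38 (mm10). The values deposited by the authors are a signal, namely DESeq2 normalized counts, and the strand setting of the counting is not given in the sources used here. Only 37.0% to 64.8% of the low values of a library were within 0.05 of a whole read, so no count model was used, the raw depth is unknown, and the value of 3 reads, between 2.56 and 3.49 normalized counts by library, is approximate.

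Genes with a mean above 10 normalized counts (15249, all 10 integrin chains among them) entered a limma fit (version 3.58.1, R 4.3.3) of log2(normalized count + 1), a scale that understates changes of low genes, with the 3 subsets in 1 model and a trend of the variance. For each comparison p was adjusted by Benjamini-Hochberg over these genes, and calls needed a fold change of 1.5 or more and an adjusted p no greater than 0.05. The fit was tested on simulated data. Ratios of chains were tested by exact permutation (scipy 1.17.1). Transcript lengths and coordinates came from GENCODE M21, to which 35968 of 36047 identifiers matched, and shared sequence from BLAST 2.17.0 (identity of at least 90% over at least 100 bases). Subsets were taken from the labels, which call the libraries biological replicates. No libraries were identical, and pairwise correlations were 0.921 to 0.966. It is not stated whether same-numbered libraries stem from the same mice. Deviations of same-numbered libraries from their subset means correlated at 0.135 to 0.203 between CD22+ and α4β7− CD22− libraries, over 0.1 in 4 of 4 pairs. For α4β7+ with α4β7− CD22− and with CD22+ libraries they correlated at 0.043 to 0.137 (over 0.1 in 2 of 4) and −0.059 to 0.182 (1 of 4). Whether the numbers pair libraries of any subsets thus remains unknown. The main limma fit and the permutation tests took all libraries as independent. Pairing by number entered only the replicate block and a sign-flip test. For the ratios between CD22+ and α4β7− CD22− cells an exact sign-flip test over the 4 pairs was added after seeing the data, as were the ratios with the median transcript length.

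The chains and gene lists were chosen with earlier results of these data known. Named in the text were all 10 chains, other integrin chains called in any comparison, up to 5 called genes of each list with the largest fold change, the 3 genes most like each called chain, and marker genes of other cell types with a mean above 10. Cd3d, Cd4, Cd8a and the low markers Cpa3, S100a8 and Ly6g were added after their values were seen. Alternatives changed the pseudocount, the filter, the scaling, the trend, the samples in the model, the fold threshold and the transcript length, added a replicate block, or left out each library.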

Additional observations from a re-analysis of the deposited data

Results flagged for a closer look

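Of the 54 groups of 4 libraries examined for a library that stands apart, 2 held one, and chance gives about 1 in 20. Itgb7 was at 285 normalized counts in CD22+ replicate 4, while the other CD22+ libraries lay between 98.7 and 122, a gap of 0.874 of the whole range (the critical value for 4 samples is 0.829). The same library had the highest T cell sum (2184) and the highest macrophage and dendritic cell sum (10783) of the CD22+ libraries, and their part in the Itgb7 value was not tested. Itgav was at 1271 normalized counts in α4β7− CD22− replicate 1, below 1616 to 1675 in the others of that subset, a gap of 0.854 of the range.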

How the results depend on the processing

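Between the α4β7− CD22− and α4β7+, CD22+ and α4β7+, and CD22+ and α4β7− CD22− subsets, the adjusted p alone gave 2265, 3223 and 164 genes instead of 1228, 1829 and 92, and 7 chains instead of 4 in the first. Without the variance trend 54 genes were called in the last. Leaving out a library gave 1116 to 1227, 1656 to 1825 and 64 to 93 genes, 3 to 4, 4 to 5 and 1 chain, and 5 to 7, 7 to 8 and 1 to 3 ratios without overlap (3 without α4β7− CD22− replicate 1, and 2 without its replicate 3 or without CD22+ replicate 4). Itgb7, Itgb1 and Itgal kept both calls, and Itgb3 its calls in CD22+ cells, in all 23 alternatives. Some log2 differences that were not called changed sign. Quantile normalization gave 0.084 for Itga4, 0.045 for Itgb2 and 0.078 for Itgam between CD22+ and α4β7− CD22− cells, and 0.154 for Itgb2 and 0.061 for Itgam between CD22+ and α4β7+ cells, where total scaling gave 0.112 for Itgae and 0.084 for Itgb2. Leaving out a library gave −0.241 to 0.148 for Itgae and −0.122 to 0.001 for Itgb2 between CD22+ and α4β7+ cells, −0.025 to 0.049 for Itgb2 between α4β7− CD22− and α4β7+ cells, and, between CD22+ and α4β7− CD22− cells, −0.011 to 0.131 for Itgal, −0.105 to 0.021 for the α4 to β1 ratio and −0.091 to 0.017 for the αM to β2 ratio. The cause was not tested. Total scaling moved the median log2 fold change of all genes from 0.014 to 0.171 in CD22+ compared with α4β7+ cells, with 1511 genes higher and 690 lower instead of 854 and 975, and from 0.003 to 0.097 in α4β7− CD22− compared with α4β7+ cells, with 820 higher and 504 lower instead of 564 and 664. Between CD22+ and α4β7− CD22− cells it gave 40 higher and 44 lower instead of 32 and 60.

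Libraries share replicate numbers across subsets, and a library correlated best with its own number in 18 of 24 cases. A replicate block gave 1254, 1843 and 100 genes and 4, 5 and 1 chains, and changed no call of a chain. As pairs, the ratios of CD22+ to α4β7− CD22− cells had an exact p of 0.125 for αE to β7, αX to β2 and αv to β3, the smallest possible, and from 0.25 to 0.625 for the other 5.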

Other observations

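Integrins that hold αv can release active TGF-β from its latent complex, and 20 genes of that system passed the filter, with 3 called higher and 2 lower in α4β7− CD22− and 2 higher and 2 lower in CD22+ compared with α4β7+ cells, or 25% and 20% of them against 8.05% and 12% of all genes. Tgfb2, a TGF-β ligand, had 66.8 ± 42.1 normalized counts in α4β7+ cells, 322 ± 103 in α4β7− CD22− cells and 654 ± 203 in CD22+ cells (SD, n = 4), a log2 fold change of 2.37 (adjusted p = 0.000251) and 3.40 (adjusted p = 4.18e-06). Ltbp2, of the latent TGF-β binding protein family, had 17.96 ± 7.72, 58.7 ± 29.7 and 101 ± 48.9 and was called higher in both, and Ltbp1 was called higher in α4β7− CD22− cells (0.75). Smad3, which carries the TGF-β signal to the nucleus, fell from 858 ± 168 to 380 ± 70 and 350 ± 74.4, and the SMAD corepressor Tgif1 fell from 418 ± 78.1 to 181 ± 33 and 157 ± 38.2. The median log2 fold change of the 20 was −0.04 and −0.03. None of the 20 was called by limma between CD22+ and α4β7− CD22− cells, and 5 had an unadjusted p under 0.05. Itgav itself was not called, and Itgb8 was below the filter.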
